A study of Mus musculus with 6 samples.

Results

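Recruited and lipid-associated macrophage markers, 10 genes in all, were followed in whole liver of Mdr2 knockout mice given lycorine or vehicle. They comprise 7 markers of monocytes and recruited macrophages (Lyz2, Ccr2, Cx3cr1, Itgam, Itgax, Cd68 and Adgre1) and 3 of scar or lipid-associated macrophages (Trem2, Gpnmb and Lgals3). They were taken as a fixed list of gene symbols and matched through GENCODE M21 to the Ensembl identifiers of the deposited table, where all 10 were found among 58601 rows. Of the 10, 7 had a mean of at least 1 TPM (a share of all transcripts in a library, already scaled for transcript length) and entered the test of lycorine against vehicle.

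The study comprises 6 RNA-seq libraries, 3 from Mdr2 knockout liver treated with lycorine, an Amaryllidaceae alkaloid, and 3 from Mdr2 knockout liver treated with vehicle. Every library carries the knockout, which the titles write as Mdr2-/- and the growth protocol as Mdr2-HKO, and the labels name neither the cells in which Mdr2 is lost nor sex or dose. Mice were 8 weeks old when a treatment of 2 weeks began. The series asks how lycorine acts on cholestasis within the liver, and no wild-type liver was analysed here. Nothing in the labels states that each library is a separate animal, and p-values therefore measure the spread between these libraries only. In RNA from whole liver, fewer cells of a type and less RNA per cell cannot be told apart.

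The liver holds resident macrophages, the Kupffer cells, and takes in blood monocytes when it is injured. Monocytes leave the marrow and follow chemokines through the receptors CCR2 and CX3CR1, and some mature in the tissue into macrophages that carry TREM2, GPNMB and galectin-3. Such cells gather around lipid, dying cells and scar, and in mice with biliary injury they lie mostly near the bile ducts. CD68, F4/80 (Adgre1) and lysozyme (Lyz2) are shared by recruited and resident macrophages, while CLEC4F marks Kupffer cells of the mouse.

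None of the macrophage markers differed between lycorine and vehicle beyond the spread of the libraries. In limma with Benjamini-Hochberg adjustment 0 of the 7 tested markers passed 0.05, and 0 had an unadjusted p under 0.05. Of all 13854 tested rows 0 passed, or 0%, and 3.44% had an unadjusted p under 0.05. In 0 of the 7 did the lycorine libraries lie wholly above or below the vehicle libraries, against 10.6% of all tested rows. All 7 had a log2 fold change below 0, against 30.1% of all tested rows, with a median of -0.20 against 0.22. Without the library vehicle 1 the median of the markers, then 6, was 0.38, the same as the 0.38 of all rows tested then. Without lycorine 3 it was 0.09, against 0.24 for all rows, so the sign of the markers' median rests on single libraries.

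Among the libraries, vehicle 3 stood apart in makeup. Nuclear protein-coding genes held 69.5% to 78.1% of TPM in lycorine libraries and 51.5% to 71.5% in vehicle libraries, with the lowest value in vehicle 3. Albumin, the plasma protein of hepatocytes, was at 11824 to 19785 TPM in lycorine libraries and at 16618, 18246 and 5039 TPM in vehicle 1, 2 and 3, so this liver marker was abundant in each library. Without vehicle 3 the median log2 fold change of the 7 markers was -0.35, and without both vehicle 3 and lycorine 3 it was -0.13, and 0 of 7 passed either way. The number of reads behind each value is unknown.

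The chemokine receptors of recruitment were low to moderate in level. Ccr2, the receptor for the monocyte attractant CCL2, on chromosome 9 from 124101950 to 124113557 of GRCm38, was at 3.18, 1.35 and 1.33 TPM in lycorine 1, 2 and 3, against 5.28, 0.87 and 1.16 TPM in vehicle 1, 2 and 3. Both groups have a single high library, number 1, and the other 4 libraries lie within 0.87 to 1.35 TPM. Ccr2 had a log2 fold change of -0.05 (SE 0.55, 95% interval -1.34 to 1.24, limma adjusted p = 0.985), which was 0.50 without vehicle 1. Cx3cr1, the fractalkine receptor of patrolling monocytes and of some tissue macrophages, was at 14.7, 6.48 and 5.30 TPM in lycorine libraries, against 21.3, 4.90 and 9.70 TPM in vehicle libraries. Again number 1 was the highest of its group, and the groups overlapped. Cx3cr1 differed by -0.31 on the log2 scale (SE 0.56, 95% interval -1.62 to 1.0, limma adjusted p = 0.903), and 0.19 without vehicle 1. The annotated span of Cx3cr1, on chromosome 9 from 119901616 to 120069879, crosses 9 other genes, and 1.06% of its windows of 50 transcript bases recur in other genes.

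The ligands were read beside the receptors. Ccl2 was at 20.2, 3.78 and 1.70 TPM in lycorine libraries, against 20.95, 6.06 and 5.12 TPM in vehicle libraries, a log2 fold change of -0.60 (SE 0.82, limma adjusted p = 0.873). Cx3cl1, the ligand of CX3CR1, was at 3.3, 2.43 and 0.53 TPM against 4.35, 1.28 and 1.38 TPM in vehicle libraries. In both ligands number 1 was the highest library of each group, as in the receptors. Of 5 listed ligands 3 were tested, all 3 had a log2 fold change below 0 and 0 passed, with a median of -0.60. Ccl8, another CCR2 ligand, was named for the smallest unadjusted p in that list. It was at 0.56, 0.42 and 0 TPM in lycorine libraries, against 2.96, 0.89 and 1.53 TPM in vehicle libraries. The groups do not overlap (log2 fold change -1.03, exact permutation p = 0.1, limma adjusted p = 0.832), as in 10.6% of all tested rows in either direction. Its mean was 0.33 TPM in lycorine and 1.79 TPM in vehicle libraries. Ccl8 thus passed the filter of 1 TPM only through vehicle, which partly fixes its direction. With 3 libraries against 3, 0.1 is the smallest two-sided p the exact permutation test can give.

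**Figure D1:**
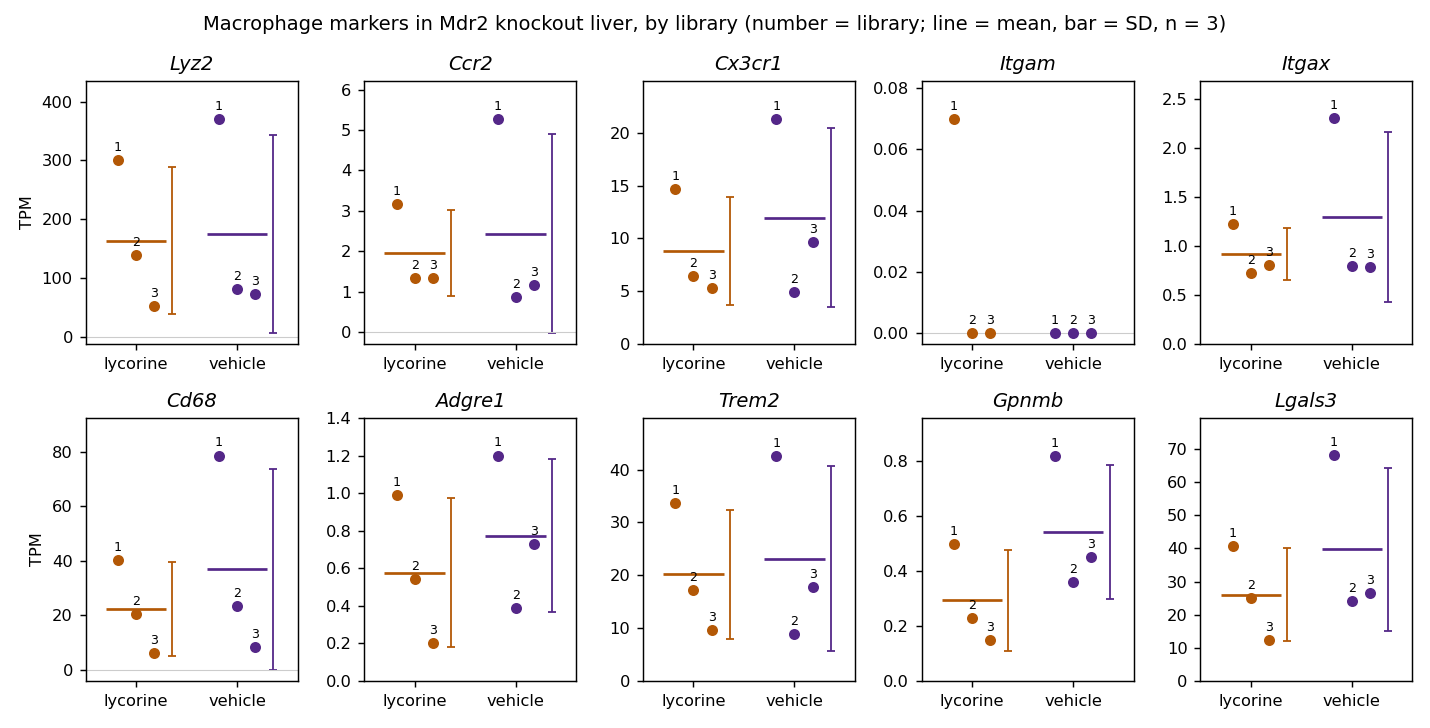
TPM of the 10 macrophage markers on linear axes, with lycorine libraries on the left and vehicle libraries on the right of each panel, each point labelled with its library number; lines are means and bars are SD (n = 3), left out for Itgam, which is listed at 0 in 5 libraries. In the other 9 panels library 1 is the highest of each group and the groups overlap.

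The integrin alpha chains differed in how they were listed. Itgam, the alpha chain CD11b of the complement receptor CR3 and a defining marker of monocytes and neutrophils, was listed at 0.07, 0 and 0 TPM in lycorine 1, 2 and 3, and at 0 in all 3 vehicle libraries. Its partner chain Itgb2, which also pairs with CD11c, was at 6.30, 2.26 and 1.72 TPM in lycorine libraries, against 10.1, 2.46 and 2.75 TPM in vehicle libraries. Itgam lies on chromosome 7 from 128062640 to 128118491, and the annotated gene Gm49368 covers most of that span on the same strand, from 128062683 to 128128160. Of 4967 windows of 50 bases in the protein-coding transcripts of Itgam, 68.5% also occur in Gm49368. Gm49368 was at 5.15, 1.99 and 1.17 TPM in lycorine libraries, against 5.52, 0.35 and 1.19 TPM in vehicle libraries, with number 1 highest in each group. It was named after its values were seen, and it had a log2 fold change of 0.35 (SE 0.67, limma adjusted p = 0.908), or -0.15 without vehicle 2 and -0.07 without lycorine 1. How the authors' counting divided reads between Itgam and Gm49368 was not tested.

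Itgax, the alpha chain CD11c of dendritic cells and of lipid-laden macrophages, on chromosome 7 from 128129547 to 128150657, was at 1.22, 0.73 and 0.81 TPM in lycorine libraries, against 2.30, 0.80 and 0.79 TPM in vehicle libraries. Apart from library 1 of each group the 4 values lie within 0.73 to 0.81 TPM. Itgax differed by -0.20 on the log2 scale (SE 0.47, 95% interval -1.30 to 0.89, limma adjusted p = 0.923), and 8.88% of the 50-base windows of Itgax recur in Itgad. Without vehicle 1 Itgax had a mean under 1 TPM and was not tested. Of 7 integrin partners and ligands 0 passed, 3 were below 0 and 4 above, and these included the fibrinogen chains and C3, made chiefly by hepatocytes.

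The markers shared by most macrophages covered a wide range of levels. Lyz2, the lysozyme of myeloid cells, was the most abundant of the 10, at 299.8, 139 and 52.0 TPM in lycorine libraries, against 370.0, 81.7 and 72.6 TPM in vehicle libraries. The highest lycorine library held 5.77 times the lowest, and the highest vehicle library 5.10 times the lowest. Lyz2 had a log2 fold change of -0.01 (SE 0.80, 95% interval -1.88 to 1.87, limma adjusted p = 0.999), and of 0.74 without vehicle 1 and 0.65 without lycorine 3. Cd68, a lysosomal membrane protein of phagocytes on chromosome 11 from 69664213 to 69666153, was at 40.3, 20.7 and 6.29 TPM in lycorine libraries, against 78.5, 23.6 and 8.47 TPM in vehicle libraries. The groups overlapped, and the highest library held 12.5 times the lowest, the widest ratio among the 9 markers above 0 in every library. Cd68 differed by -0.50 on the log2 scale (SE 0.88, 95% interval -2.55 to 1.55, limma adjusted p = 0.899), and 0.29 without vehicle 1. Adgre1, which encodes F4/80, was at 0.99, 0.54 and 0.20 TPM in lycorine libraries, against 1.20, 0.39 and 0.73 TPM in vehicle libraries. It lay below the filter, and with no filter its log2 fold change was -0.17 (limma adjusted p = 0.908).

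Lyz2 has a close neighbour, Lyz1, the lysozyme of Paneth cells in the mouse gut. Of the 50-base windows of Lyz2 transcripts 15.4% also occur in Lyz1, and how reads of these windows were divided was not tested. Lyz1 was at 1.65, 0.58 and 0.08 TPM in lycorine libraries, against 1.20, 0.53 and 0.18 TPM in vehicle libraries, and its order of libraries resembles that of Lyz2 at a far lower level. Over the 250 bases before the RefSeq start sites, on GRCm38.p6, 152 of 250 positions match between Lyz2 and Lyz1, or 60.8%, and in the 100 bases next to the start 92 match. Those 100 bases of Lyz2 run from 117282273 to 117282372 on the minus strand of chromosome 10. The annotated gene reaches 117282321, so the bases nearest to the RefSeq start lie within Lyz2 as GENCODE gives it.

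The markers of lipid-associated macrophages showed the same ordering of libraries. Trem2, the lipid-sensing receptor that defines these cells, on chromosome 17 from 48346401 to 48354147, was at 33.6, 17.1 and 9.70 TPM in lycorine libraries, against 42.6, 8.82 and 17.8 TPM in vehicle libraries. Library 1 was the highest of each group, and the lowest of all was vehicle 2. Trem2 differed by -0.09 on the log2 scale (SE 0.63, 95% interval -1.56 to 1.39, limma adjusted p = 0.976), and 0.47 without vehicle 1. Lgals3, galectin-3, on chromosome 14 from 47367751 to 47386160, was at 40.8, 25.0 and 12.5 TPM in lycorine libraries, against 68.1, 24.3 and 26.6 TPM in vehicle libraries. Of the 7 tested markers Lgals3 had the smallest unadjusted p, 0.326 in limma, with a log2 fold change of -0.57 (SE 0.55, 95% interval -1.85 to 0.70, limma adjusted p = 0.832), which was -0.11 without vehicle 1. Gpnmb, a lysosomal glycoprotein of lipid-laden macrophages on chromosome 6 from 49036546 to 49070929, was at 0.50, 0.23 and 0.15 TPM in lycorine libraries, against 0.82, 0.36 and 0.45 TPM in vehicle libraries. It lay below the filter, and with no filter its log2 fold change was -0.25 (limma adjusted p = 0.860).

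TREM2 signals through the adaptor TYROBP. Tyrobp was at 112, 60.1 and 25.7 TPM in lycorine libraries, against 171, 49.6 and 49.5 TPM in vehicle libraries, a log2 fold change of -0.42 (SE 0.67, limma adjusted p = 0.887). Within each library Tyrobp was above Trem2, and library 1 was again the highest of each group. Of 8 listed genes of TREM2 signalling and shedding 7 were tested, 6 were below 0 and 0 passed, with a median of -0.42. Among them Adam10, a protease that releases TREM2 from the cell surface, was at 3.42, 2.30 and 3.45 TPM in lycorine libraries, against 6.10, 2.29 and 8.08 TPM in vehicle libraries.

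**Figure D2:**
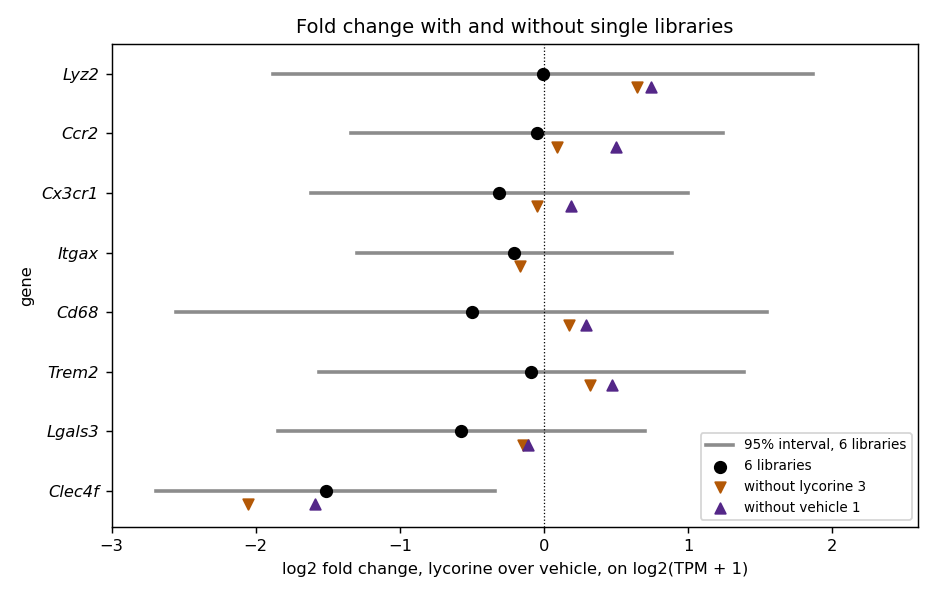
Log2 fold change of lycorine over vehicle on the log2(TPM + 1) scale for the 7 tested macrophage markers and the Kupffer cell marker Clec4f, with all 6 libraries (points with 95% intervals, not adjusted for multiple testing) and without lycorine 3 or vehicle 1 (triangles; Itgax was not tested without vehicle 1). All 7 marker intervals include 0, and 5 of the 6 markers with a triangle for vehicle 1 lie above 0 there.

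The markers shared an order of the libraries. Vehicle 1 was the highest library in 9 of the 9 markers above 0 throughout, and lycorine 1 was the second in 9 of 9. Both held in 7 of the 7 tested markers, of which Itgax passed the filter only with vehicle 1. Among all tested rows vehicle 1 was the highest in 20.7%, and it was the highest with lycorine 1 second in 12.2%. With median-of-ratios scaling vehicle 1 was still the highest in 9 of 9, while lycorine 1 was second in 4, vehicle 2 in 3 and vehicle 3 in 2. Averaged over the 7 tested markers, log2(TPM + 1) minus the mean of the 6 libraries was 0.67, -0.17 and -0.87 in lycorine 1, 2 and 3, and 1.24, -0.48 and -0.39 in vehicle 1, 2 and 3. The spread within each group was thus wider than the distance between the groups. Lycorine 3 was the lowest library in 5 of 9 markers, vehicle 2 in 3 and lycorine 2 in 1.

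Several Kupffer cell markers, Clec4f among them, had another order of libraries than the members, and others in the same list did not. Clec4f was at 14.6, 18.7 and 52.8 TPM in lycorine libraries, against 64.8, 57.1 and 99.5 TPM in vehicle libraries, and the groups did not overlap (log2 fold change -1.52, exact permutation p = 0.1, limma adjusted p = 0.832). Lycorine 1, second among the macrophage markers, was the lowest of all 6 libraries in Clec4f, and vehicle 3 was the highest. Fcna and Cd5l, secreted proteins of resident macrophages, were also lowest in lycorine 1, at 2.27 and 1.78 TPM, and were named for having among the smallest p of the list. Of the 16 listed Kupffer cell genes 15 were tested, 13 were below 0 and 0 passed, with a median log2 fold change of -0.56. In 6 of the 15 the lycorine libraries lay wholly below the vehicle libraries and in 1, the complement gene C6, wholly above, while 10.6% of all tested rows did not overlap in either direction. Averaged over the list, the centred log2 level was -0.25, -0.41 and -0.37 in lycorine 1, 2 and 3, and 0.59, 0.19 and 0.24 in vehicle 1, 2 and 3. Vehicle 1 thus had the highest mean, as in the members. Gene by gene, however, vehicle 1 was the highest library in 3 of the 15, against 7 of the 7 tested members. C1qa, a complement subunit in that list which recruited macrophages also make, was at 154, 54.7 and 29.5 TPM in lycorine libraries, against 176, 57.6 and 80.7 TPM in vehicle libraries. C1qb likewise was highest in vehicle 1 with lycorine 1 second, and C1qc and Cdh5 were highest in lycorine 1. Id3 was highest in vehicle 1, at 49.4 TPM, and lowest in vehicle 3, at 5.06 TPM. These 5 genes and C6 were named after their values were seen.

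**Figure D3:**
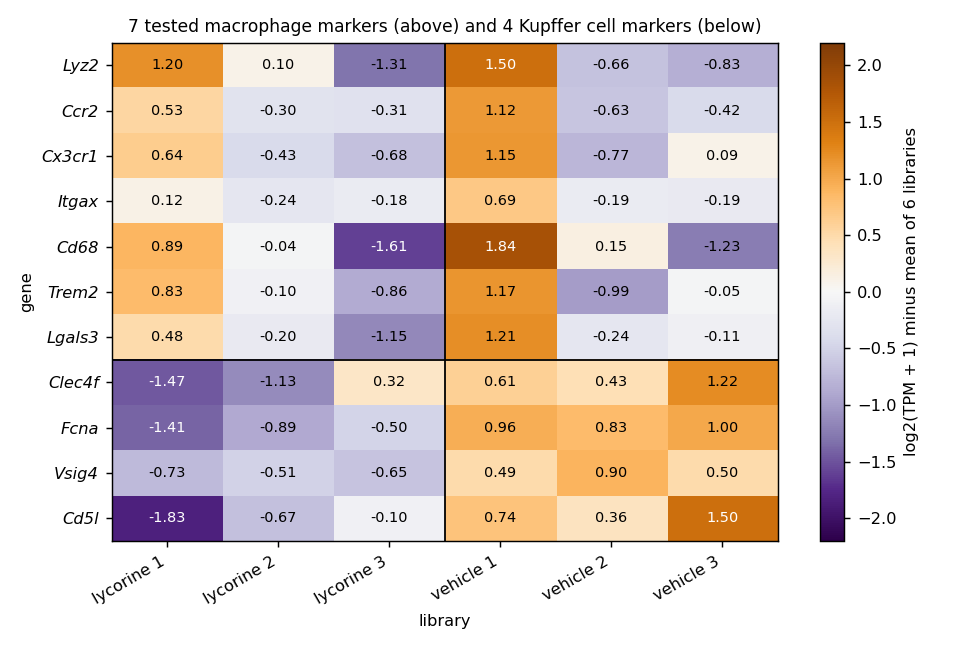
Log2(TPM + 1) minus the mean of the 6 libraries for the 7 tested macrophage markers (above the line) and for Clec4f and the 3 Kupffer cell genes with the smallest unadjusted p (below it), with lycorine libraries on the left and vehicle libraries on the right. Lycorine 1 is above the mean in all 7 markers and below it in the 4 Kupffer cell genes drawn, a low level that their choice by p partly fixes, since other genes of that list, such as C1qc and Cdh5, were highest in lycorine 1.

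Ratios within a library do not depend on scaling between libraries, apart from the pseudocount of 0.1, and 6 were computed. That pseudocount weighs most on low genes such as Gpnmb and Itgam. Trem2 over Cd68 was 0.83, 0.83 and 1.54 in lycorine libraries, against 0.54, 0.37 and 2.10 in vehicle libraries. On the log2 scale the means were 0.03 ± 0.51 in lycorine and -0.41 ± 1.30 in vehicle (SD, n = 3 each), a difference of 0.44 (exact permutation p = 0.6, 0.9 adjusted over 6 ratios). Library 3 had the highest ratio in each group, and the groups overlapped. Lgals3 over Cd68 was 1.01, 1.21 and 1.98 in lycorine libraries, against 0.87, 1.03 and 3.15 in vehicle libraries, a log2 difference of -0.07 (exact permutation p = 0.9). Gpnmb over Cd68 differed by -0.22 (exact permutation p = 0.8).

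The ratios to Clec4f set Lyz2, Ccr2 and Itgam beside a Kupffer cell gene. Lyz2 over Clec4f was 20.6, 7.46 and 0.99 in lycorine libraries, against 5.71, 1.43 and 0.73 in vehicle libraries, a log2 difference of 1.55 (exact permutation p = 0.4, 0.8 adjusted over 6 ratios). Ccr2 over Clec4f differed by 1.57 (exact permutation p = 0.3, 0.8 adjusted). The mean ratio was higher in lycorine in both, as it was without each library in turn. The log2 differences then ran from 0.58 to 2.77 for Lyz2 and from 0.81 to 2.41 for Ccr2. With all 6 libraries the log2 fold change was -1.52 for Clec4f, -0.01 for Lyz2 and -0.05 for Ccr2. Both ratio differences over all 6 libraries are thus almost wholly that of Clec4f, and show no rise of Lyz2 or Ccr2. The groups overlapped: lycorine 3 lay within the vehicle range in both ratios, and lycorine 2 also did so for Ccr2. The ratio of Itgam to Clec4f (difference 1.81, exact permutation p = 0.1) is set by Clec4f and the pseudocount, because Itgam was listed at 0 in 5 libraries.

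**Figure D4:**
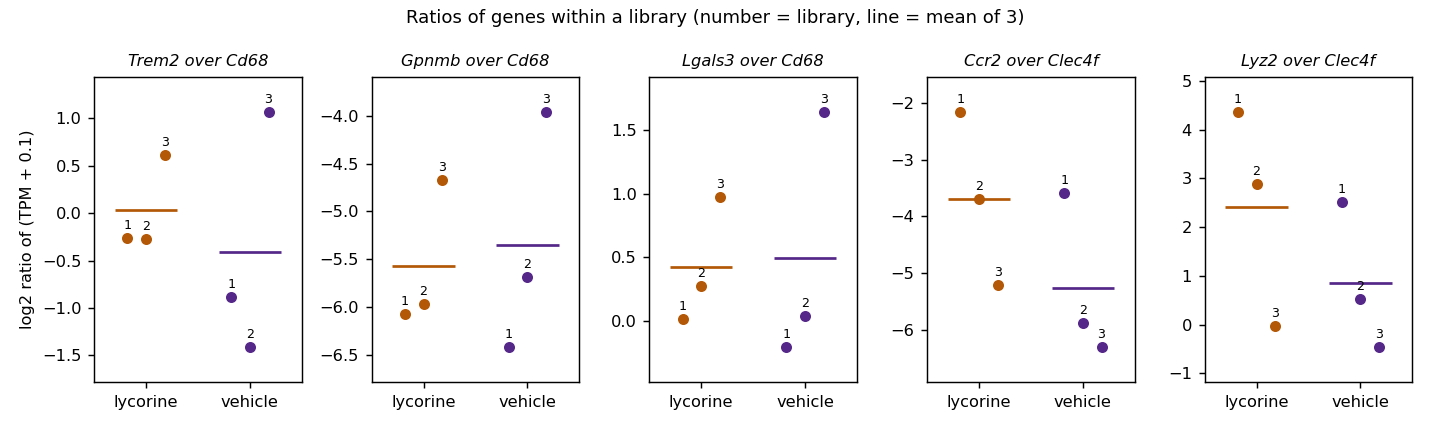
Log2 ratios of (TPM + 0.1) within each library for Trem2, Gpnmb and Lgals3 over Cd68 and for Ccr2 and Lyz2 over Clec4f, with lycorine libraries on the left and vehicle libraries on the right; points carry library numbers and lines are means of 3. The groups overlap in all 5 panels, and library 3 has the highest ratio to Cd68 in each group.

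Other genes of monocytes and macrophages were mostly below 0 as well. Of 24 further genes of monocytes and macrophages 21 were tested, 18 were below 0 and 0 passed, with a median log2 fold change of -0.26, and vehicle 1 was the highest library in 16 of 21. Csf1r, the receptor for the growth factor that keeps macrophages alive, was at 25.3, 9.70 and 4.78 TPM in lycorine libraries, against 27.9, 6.60 and 8.56 TPM in vehicle libraries (log2 fold change -0.12, SE 0.68, limma adjusted p = 0.969). Its value was 0.47 without vehicle 1. Of 6 growth factors and receptors 5 were tested, all 5 were below 0 and 0 passed, with a median of -0.13.

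Further genes of lipid-associated macrophages, mostly lysosomal and lipid-handling ones, were mostly above 0. Of 23 tested 19 were above 0, 4 were below 0 and 0 passed, where 30.1% of all tested rows were below 0. The 4 below 0 were Mmp12 at -0.64, Lpl at -0.37, Atp6v0d2 at -0.33 and Capg at -0.25, named after their values were seen. The median was 0.35, against 0.22 over all rows. Lamp1, a lysosomal membrane protein, was at 202, 149.97 and 107.7 TPM in lycorine libraries, against 117, 99.4 and 78.6 TPM in vehicle libraries (log2 fold change 0.61, limma adjusted p = 0.832). Lipa, the lysosomal acid lipase, was at 30.6, 26.7 and 27.6 TPM in lycorine libraries, against 27.3, 15.4 and 17.4 TPM in vehicle libraries. Cstb, an inhibitor of cathepsins, was at 224, 101 and 79.8 TPM against 93.5, 62.6 and 59.7 TPM in vehicle libraries. Hepatocytes express many genes of that list, Apoe above all. The part of hepatocytes or of other cells in these values was not tested.

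Summed markers of some other cells, those of bile ducts, stellate cells and leukocytes, were highest in library 1 of each group, as most members were. Gene by gene the likeness was looser. Vehicle 1 was the highest library in 2 of 7 tested bile duct genes, 4 of 9 stellate genes and 4 of 7 leukocyte genes. In these lists 4, 6 and 1 tested genes had a log2 fold change above 0, while all 7 tested members were below 0. The part of these cells in the members' values was not tested. Genes of bile ducts, 7 tested of 8, summed to 213, 142 and 52.4 TPM in lycorine libraries, against 223, 48.4 and 51.3 TPM in vehicle libraries. A large part of that sum is Spp1, at 131, 101 and 33.4 TPM against 120, 31.2 and 16.8 TPM in vehicle libraries. Spp1 is also in the list of further genes of lipid-associated macrophages. Stellate cell and fibroblast genes, 9 tested of 11, summed to 272, 129.9 and 58.5 TPM against 236, 104 and 120.3 TPM in vehicle libraries. In both lists library 1 had the highest sum of each group. Genes of all leukocytes summed to 157, 88.0 and 48.8 TPM in lycorine libraries, against 247, 63.6 and 82.6 TPM in vehicle libraries, and Ptprc, which encodes CD45, was at 1.61, 0.61 and 0.80 TPM against 2.03, 0.56 and 1.24 TPM. Dendritic cell genes, which include class II antigen presentation genes that macrophages share, were highest in vehicle 1 in 7 of 7 tested. Of 13 neutrophil genes 3 were tested, the defining marker Ly6g was listed at 0 in every library, and the sum was 5.21, 3.60 and 1.88 TPM in lycorine libraries, against 32.2, 8.29 and 7.08 TPM in vehicle libraries. Vehicle 1 had the highest sum, with S100a8 and S100a9, the calprotectin subunits, at 11.2 and 12.7 TPM there. Of 9 tested hepatocyte genes vehicle 1 was the highest library in 1. Of 8 tested lymphocyte genes it was the highest in 6, of 6 sinusoidal endothelial genes in 3, and of 3 peritoneal macrophage genes in 2, and 0 genes passed in any of these lists.

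**Figure D5:**
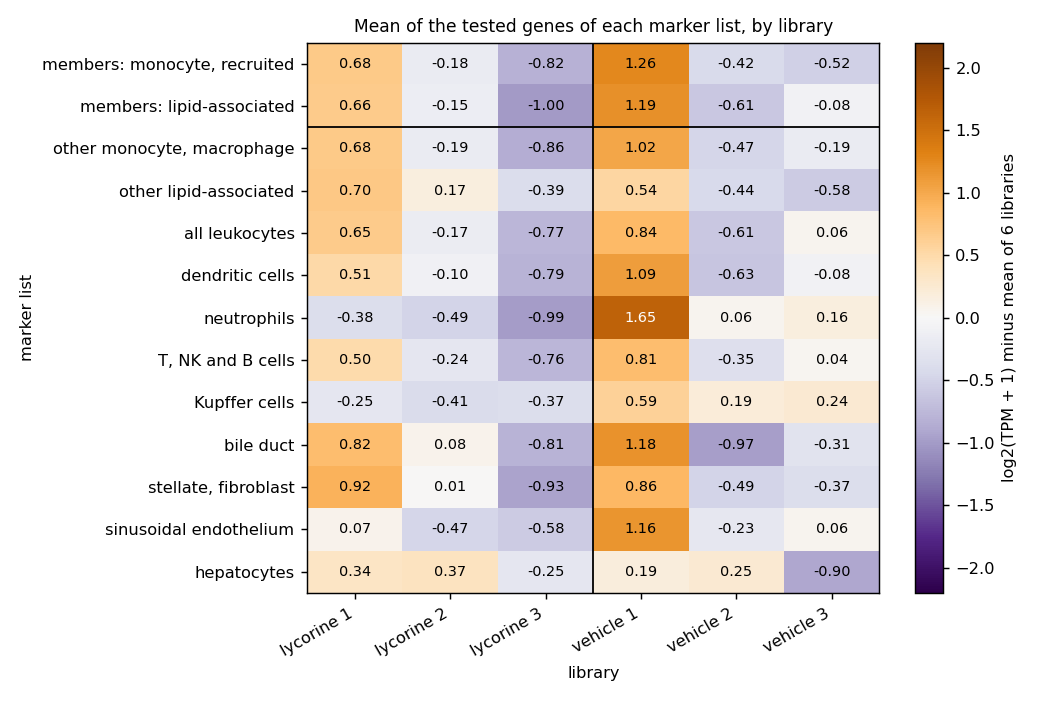
Mean over the tested genes of each list of log2(TPM + 1) minus the mean of the 6 libraries, with lycorine libraries on the left and vehicle libraries on the right; the members' lists are above the line. Vehicle 1 has the highest mean in both members' lists, at 1.26 and 1.19, and lycorine 3 the lowest, at -0.82 and -1.0.

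The genes nearest to each marker across the 6 libraries were found by the root mean square distance between centred log2(TPM + 1) profiles among 10988 other protein-coding rows. Nearest to Trem2 were Ltb, Slc29a3 and Tmem119, at distances of 0.07, 0.08 and 0.12. Nearest to Lyz2 were Ucp2, Plat and Marcksl1, at 0.12, 0.12 and 0.13, and nearest to Cx3cr1 was Cd44 at 0.11. Unc93b1 was nearest to Ccr2 at 0.10 and Grk2 to Itgax at 0.07. S100a6 was nearest to Lgals3 at 0.14, and Tnfrsf12a to Cd68 at 0.27. Cd68 thus had no neighbour as close as those of the other 6 markers. The distance is not scaled for a gene's own spread, however, and the spread was widest in Cd68, at 12.5 times from lowest to highest library.

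Because the markers shared an order of libraries, their promoters were searched for letters bound by PU.1 (Spi1), the factor of the myeloid lineage. RefSeq windows of 250 bases before the start were found for 9 of the 10 genes, on GRCm38.p6. The RefSeq start is not always the first base of the gene in GENCODE. The windows of Lgals3 and Cx3cr1 lie within the annotated gene, as do most of that of Ccr2 and parts of those of Lyz2 and Itgax. GAGGAAGT, on either strand, was in 0 of 9 and in 2.44% of 32851 promoters of the same length. CACGTG, the E-box of the MITF family, was in 0 of 9 and in 6.02% of all. GAGGAA, a shorter form which lies within GAGGAAGT and was added after the first search, was in 3 of 9, for which the share of all promoters is 23.3%. The 3 promoters are shown 5′ to 3′ on the strand of the gene, with GAGGAA or its reverse complement in capitals. In Itgam the letters begin 84 and 15 bases before the start, in Cd68 225 and in Trem2 40 bases before it. A match is a description of the letters and not of binding.
Itgam, plus strand, chr7:128062390-128062639: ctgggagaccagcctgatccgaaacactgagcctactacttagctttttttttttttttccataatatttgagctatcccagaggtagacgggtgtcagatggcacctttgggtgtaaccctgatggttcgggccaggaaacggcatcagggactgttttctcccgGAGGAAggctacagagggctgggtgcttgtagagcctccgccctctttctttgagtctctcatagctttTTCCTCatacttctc
Cd68, minus strand, chr11:69666171-69666420: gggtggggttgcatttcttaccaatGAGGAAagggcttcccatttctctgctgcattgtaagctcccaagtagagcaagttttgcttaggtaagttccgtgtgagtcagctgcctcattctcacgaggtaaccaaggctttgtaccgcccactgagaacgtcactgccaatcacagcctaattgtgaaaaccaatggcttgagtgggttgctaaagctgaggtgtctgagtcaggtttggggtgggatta
Trem2, plus strand, chr17:48346151-48346400: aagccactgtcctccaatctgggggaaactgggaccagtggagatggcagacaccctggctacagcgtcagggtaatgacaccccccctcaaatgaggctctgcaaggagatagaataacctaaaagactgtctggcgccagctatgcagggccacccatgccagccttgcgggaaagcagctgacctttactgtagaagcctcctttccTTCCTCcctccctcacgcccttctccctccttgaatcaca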

How the data were processed

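RNA-seq of whole liver gave 6 libraries, 3 lycorine and 3 vehicle, in 1 table. The authors deposited values per gene whose name speaks of FPKM, but each column sums to 1000000 within rounding, so the deposited values are TPM with 2 decimals and were treated as such. Per the submitters' processing notes the builds are GRCm38 and mm10; no source used here names the aligner, quantifier or annotation. Columns with a short form of lycorine were given to lycorine, and the 3 others, which name only the genotype, to vehicle, the one remaining group.

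Names and coordinates came from GENCODE M21, which holds 52083 of 58601 rows. The 13854 rows averaging 1 TPM or more were tested on log2(TPM + 1). The test was the two-sided moderated one of limma 3.58.1 (R 4.3.3), its prior variance following mean level. P-values were adjusted by Benjamini-Hochberg across those 13854 rows, and 0.05 was the threshold. A fold change on this scale understates the change of low genes. Single genes and ratios, with a pseudocount of 0.1, had an exact permutation test over 20 assignments. The fit was tested on simulated data. Depth is unknown, so no counting interval is given.

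The members, marker lists and tests were chosen with earlier results of these data known. All members were named, with fixed partners, at most 3 genes per list by smallest p, and the 3 nearest protein-coding rows per tested member. Alternatives covered pseudocount, filter, scaling, variance model, library weights, a replicate block and leaving libraries out, with the filter then applied to the libraries left. The result of 1 listed gene is not reported here.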

Additional observations from a re-analysis of the deposited data

How the results depend on the processing

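Across 17 alternatives 0 macrophage markers passed in limma, and of 116 values for the 7 tested markers 101 kept the sign of their fold change and 15 turned it. The count of rows called was 1 with a pseudocount of 0.1 and with array quality weights, 5 without both vehicle 3 and lycorine 3, and 0 to 2 over the single libraries left out, against 0. Log2 fold changes over the single libraries left out ran from -0.61 to 0.74 for Lyz2, -0.38 to 0.50 for Ccr2, -0.77 to 0.19 for Cx3cr1, -0.35 to -0.13 for Itgax, -1.24 to 0.29 for Cd68, -0.60 to 0.47 for Trem2 and -0.96 to -0.11 for Lgals3. For other genes they ran from -0.15 to 0.99 for Gm49368, -0.91 to 0.17 for Tyrobp, -0.82 to 0.16 for Itgb2, -0.70 to 0.47 for Csf1r, -1.45 to 0.0354 for Ccl2 and -0.42 to 0.32 for Cx3cl1. With array quality weights Lyz2 was 0.14, Trem2 0.12 and Cx3cl1 0.17, and with a pseudocount of 0.1 Ccr2 was 0.0162. Without both vehicle 3 and lycorine 3 Lyz2 was 0.23, Trem2 0.28, Csf1r 0.18 and Cx3cl1 0.14. Ratios over single libraries left out ran from -0.0622 to 1.17 for Trem2 over Cd68, -0.75 to 0.48 for Gpnmb over Cd68 and -0.42 to 0.51 for Lgals3 over Cd68. Gpnmb over Cd68 was 0.25 with a pseudocount of 1 and 0.0283 without both libraries 3, and Lgals3 over Cd68 was then 0.23. The causes were not tested. With median-of-ratios scaling the median of all rows was -0.01 in place of 0.22, and that of the markers -0.36 in place of -0.20.

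Both groups carry numbers 1 to 3, and deviations of same-numbered libraries from their group means correlated at 0.31, 0.05 and 0.29 across genes. Differently numbered libraries correlated at -0.34 to 0.21. Each lycorine library correlated best with the vehicle library of its number, whereas vehicle 2 correlated best with lycorine 1, at 0.21. These values do not settle whether the numbers mark pairs, and the main fit took none. With the replicate block 0 rows and 0 markers were called, and 1033 rows had an unadjusted p under 0.05 against 476 without it. In this balanced design the block leaves every fold change as it is and moves only p, such as the unadjusted limma p of Cd68, 0.105 with the block and 0.584 without it.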
